A study of Populus ussuriensis with 20 samples.

Results

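The 7 genes described here encode methyltransferases and reductases that turn hydroxycinnamic acid derivatives into lignin monomers in poplar. They are *CCoAOMT1*, *CCoAOMT2* and *CCoAOMT3* for caffeoyl-CoA O-methyltransferase, *AldOMT2* for the O-methyltransferase acting on hydroxylated coniferaldehyde, *CCR2* for cinnamoyl-CoA reductase, and *CAD1* and *CAD2* for cinnamyl alcohol dehydrogenase. They were chosen by their identity in poplar, by a rule that uses no measured value, though with earlier results of these data known. They are 7 of 39538 gene models in the deposited tables. RNA came from the lowest 0.5 cm of stem cuttings of *Populus ussuriensis* grown in vitro, taken 6, 12, 24, 48 and 96 h after cutting, while adventitious roots form. Wild-type plants (WT) were compared with plants that express *PuHox52*, a homeodomain-leucine zipper gene of this species, from the 35S promoter (35S::PuHox52, here OE). The 35S promoter, from a plant virus, drives expression in most plant cell types. Each of the 10 groups had 2 biological replicates of 40 pooled cuttings, and the plants' age is given as 2 weeks in the series text and as 4 weeks in the growth protocol. All groups were cut, none was sampled at the moment of cutting, and the number of transgenic lines is not stated in the labels.

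Lignin is a phenolic polymer that stiffens and waterproofs the secondary walls of xylem vessels and fibres. Its guaiacyl and syringyl units come from phenylalanine by deamination, ring hydroxylation, activation to a CoA ester, O-methylation and reduction. CCoAOMT methylates caffeoyl-CoA to feruloyl-CoA, CCR reduces feruloyl-CoA to coniferaldehyde, AldOMT2 adds the methyl group that distinguishes syringyl from guaiacyl units, and CAD reduces the aldehydes to the alcohols that are polymerised in the wall.

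Libraries held 10399262 to 27472303 counts. All 7 genes passed the filter on low counts with the 26391 models tested, and their counts per library ran from 329 for *CCoAOMT3* to 19918 for *CCoAOMT2*. In the coordinates of the deposited tables, whose genome build is not given in the sources used here, *CCoAOMT1* (Potri.009G099800.v3.0) lies on chromosome 9 from 8863870 to 8865909 on the minus strand. *CCoAOMT2* (Potri.001G304800.v3.0) lies on chromosome 1 from 30772404 to 30774048, *CCoAOMT3* (Potri.008G136600.v3.0) on chromosome 8 from 9102855 to 9105139, and *AldOMT2* (Potri.012G006400.v3.0) on chromosome 12 from 555437 to 558564, all on the minus strand. On the plus strand, *CCR2* (Potri.003G181400.v3.0) lies on chromosome 3 from 18841741 to 18846584, *CAD1* (Potri.009G095800.v3.0) on chromosome 9 from 8651535 to 8653872, and *CAD2* (Potri.016G078300.v3.0) on chromosome 16 from 5972301 to 5976275. The last 714 bases of the *CCR2* locus overlap a second gene model on the same strand, Potri.003G181500.v3.0, which was listed with 0 counts in all 20 libraries. *CCoAOMT1* and *CCoAOMT2* are close paralogues, and how reads matching both were counted is not given, so the split of counts between them is uncertain.

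Per length, *CCoAOMT2* had the highest median level of the 7 genes, at 445 FPKM over the 20 libraries of all times (fragments scaled by gene length and library size, range 192 to 757). At 96 h *CAD1* stood above it in all 4 libraries, with 366 and 346 FPKM in WT and 364 and 288 FPKM in OE against 272 and 192 FPKM and 277 and 244 FPKM for *CCoAOMT2*. *AldOMT2* (median 249 FPKM, range 163 to 359), *CAD1* (247, 172 to 366) and *CCR2* (218, 175 to 287) came next, and their ranges overlapped each other and that of *CCoAOMT2*. *CCoAOMT1* followed at 132 FPKM (98.8 to 161), *CAD2* at 86.5 FPKM (35.2 to 122) and *CCoAOMT3* at 59.9 FPKM (26.0 to 113). The highest group mean exceeded the lowest by 3.46-fold for *CCoAOMT3*, 3.40-fold for *CAD2* and 3.04-fold for *CCoAOMT2*, in CPM (counts scaled to equal library size). For *CCR2* and *CCoAOMT1* the same ratio was 1.51 and 1.49. The secondary wall cellulose synthases, whose transcripts mark cells that build lignified xylem walls, were present in every library, with a summed level of 33.1 to 145 FPKM over 5 genes. In such whole stem bases, fewer cells of a type and less RNA per cell cannot be told apart.

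**Figure D1:**
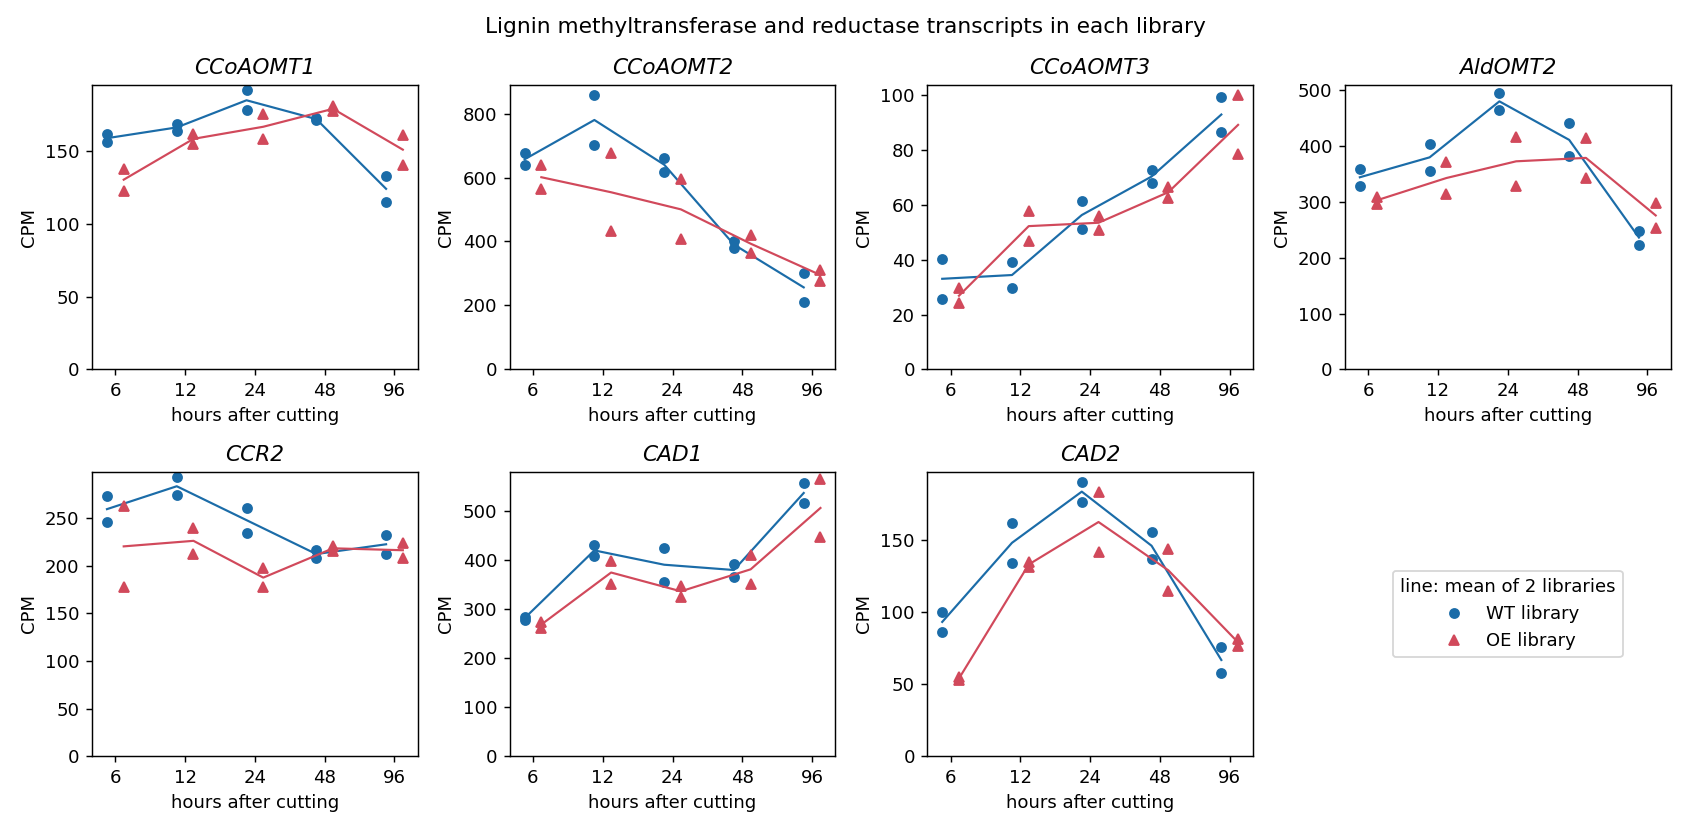
Levels of the 7 genes in CPM (counts scaled to equal library size) in each of the 20 libraries against hours after cutting, with WT as circles, OE as triangles and lines through the means of 2 libraries. CCoAOMT2 is lowest at 96 h in both genotypes (211 to 312 CPM), CCoAOMT3 and CAD1 are highest at 96 h, and CAD2 has its highest mean at 24 h.

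*CCoAOMT2* was the most abundant of the 3 listed caffeoyl-CoA methyltransferase transcripts and fell over the time course in both genotypes. With libraries in replicate order, its WT level was 638 and 676 CPM (6 h), 857 and 702 (12 h), 662 and 618 (24 h), 402 and 379 (48 h), and 302 and 211 (96 h). In OE it was 639 and 563 CPM (6 h), 675 and 433 (12 h), 594 and 407 (24 h), 421 and 365 (48 h), and 312 and 278 (96 h). Both libraries at 96 h lay below all libraries of the earlier times within each genotype, while the OE libraries from 6 to 24 h spread widely and overlapped each other. From 6 to 96 h the transcript fell 2.56-fold in WT (log2 fold change -1.36, SE 0.212, adjusted p = 4.14e-05, from edgeR's quasi-likelihood model with p adjusted over all genes tested). In OE it fell 2.04-fold (log2 fold change -1.03, SE 0.210, adjusted p = 0.000534). The labels give no clock time of cutting. If all plants were cut at the same hour, 24, 48 and 96 h share the hour of day, which 6 and 12 h do not. Time since cutting and time of day therefore cannot be told apart in comparisons with 6 h. Between 24 and 96 h *CCoAOMT2* fell 2.49-fold in WT (log2 fold change -1.32, SE 0.212, adjusted p = 0.000343) and 1.70-fold in OE (log2 fold change -0.76, SE 0.209, adjusted p = 0.014). Without OE 24 h replicate 1 or OE 96 h replicate 2 the OE call was lost, with adjusted p between 0.078 and 0.219.

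*CCoAOMT3*, the least abundant of the 3 listed genes for this enzyme, moved in the opposite direction. In WT it stood at 40.4 and 25.7 CPM (6 h), 29.6 and 39.3 (12 h), 51.2 and 61.4 (24 h), 72.7 and 67.9 (48 h), and 99.1 and 86.7 (96 h). In OE the libraries held 24.1 and 29.6 CPM (6 h), 57.6 and 46.9 (12 h), 56.0 and 50.9 (24 h), 62.6 and 66.5 (48 h), and 99.9 and 78.3 (96 h). Both genotypes had their highest libraries at 96 h and their lowest at 6 h, with overlap only between 6 and 12 h in WT and between 12 and 24 h in OE among neighbouring levels. From 6 to 96 h it rose 2.83-fold in WT (log2 fold change 1.50, SE 0.195, adjusted p = 6.31e-06) and 3.33-fold in OE (log2 fold change 1.73, SE 0.195, adjusted p = 1.55e-06). The first rise that passed the test came between 12 and 24 h in WT (log2 fold change 0.71, SE 0.189, adjusted p = 0.0216) and between 6 and 12 h in OE (log2 fold change 0.97, SE 0.194, adjusted p = 0.00117). The WT step was not called without WT 12 h replicate 1 or WT 24 h replicate 2 (adjusted p 0.202 to 0.234). From 24 to 96 h the rise was 1.65-fold in WT (adjusted p = 0.00867) and 1.66-fold in OE (adjusted p = 0.00901). Those calls were lost without WT 24 h or WT 96 h replicate 1 in WT, and without either OE 24 h library or OE 96 h replicate 1 in OE, with adjusted p up to 0.125.

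*CCoAOMT1* varied least within the family and had its lowest WT level at the end of the course. Its WT libraries held 161 and 156 CPM (6 h), 168 and 163 (12 h), 178 and 191 (24 h), 172 and 171 (48 h), and 133 and 115 (96 h). The OE libraries held 138 and 122 CPM (6 h), 161 and 155 (12 h), 175 and 158 (24 h), 180.2 and 177 (48 h), and 161 and 140.3 (96 h). In WT the 5 times formed an order without overlap, with 24 h highest and 96 h lowest, and in OE 48 h was highest and 6 h lowest. The WT level fell 1.49-fold from 24 to 96 h (log2 fold change -0.58, SE 0.0999, adjusted p = 0.00062) and 1.28-fold from 6 to 96 h (log2 fold change -0.36, SE 0.100, adjusted p = 0.00582). The latter was not called without WT 96 h replicate 2 (adjusted p = 0.0924). In OE neither comparison passed the test, with log2 fold changes of -0.14 (adjusted p = 0.306) and 0.21 (adjusted p = 0.079). A rise from 6 to 12 h passed in OE (log2 fold change 0.28, SE 0.0995, adjusted p = 0.0368) and was lost without OE 6 h replicate 2 or either OE 12 h library (adjusted p 0.0804 to 0.185).

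With *CCoAOMT2* falling and *CCoAOMT3* rising, the shares of the 3 caffeoyl-CoA methyltransferase transcripts were closer to each other at 96 h than at 6 h. In WT at 6 h *CCoAOMT2* made up 78.2 ± 2.21% of the summed FPKM of the 3 genes (SD, n = 2), *CCoAOMT1* 17.02 ± 0.523% and *CCoAOMT3* 4.78 ± 1.69%. At 96 h in WT these shares were 52.3 ± 3.64%, 24.0 ± 2.33% and 23.7 ± 1.29%. OE went from 80.0 ± 1.24%, 15.6 ± 0.106% and 4.47 ± 1.13% at 6 h to 54.5 ± 1.15%, 25.7 ± 0.460% and 19.9 ± 1.61% at 96 h. The 96 h libraries lay apart from the 6 h libraries for each of the 3 shares in both genotypes. With 2 libraries per group such a separation can arise without a difference. The 3 shares of a library make up the whole, so they are not separate results. The *CCoAOMT1* share rose in WT while the mean level of that gene went from 158 CPM at 6 h to 124 CPM at 96 h. The summed level of the 3 genes was 759 and 766 FPKM in WT at 6 h and 495 and 386 FPKM at 96 h, and 709.5 and 636 against 516 and 441 FPKM in OE. These shares cover the 3 listed genes only and were not tested. Those of *CCoAOMT1* and *CCoAOMT2* carry the uncertainty of reads that match both.

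**Figure D2:**
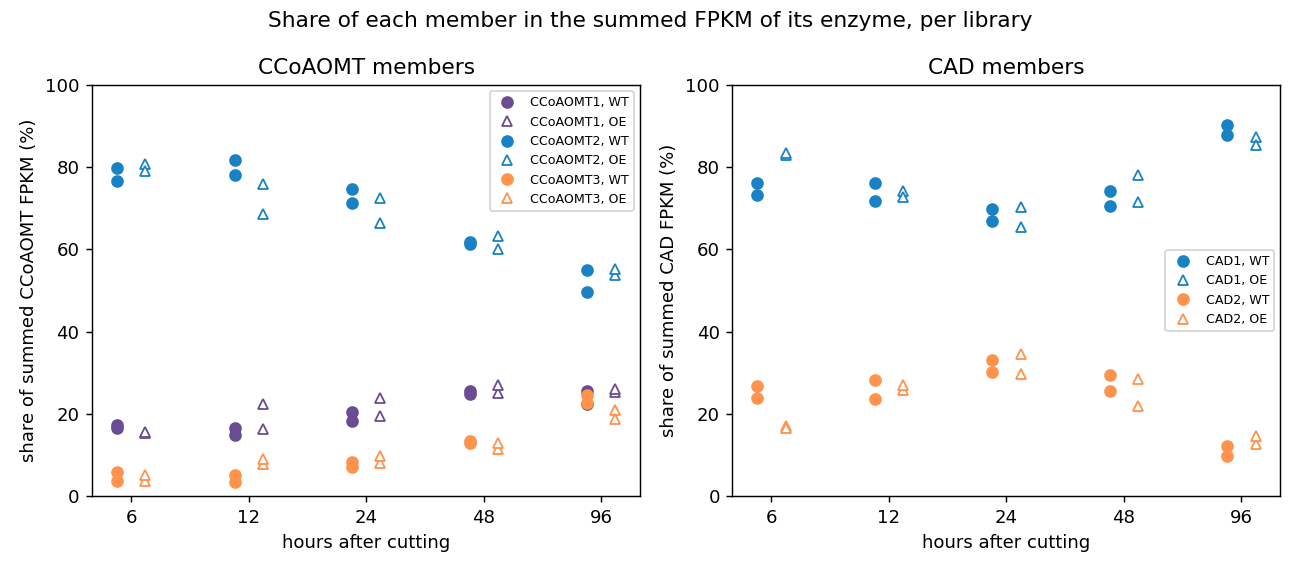
Share of each gene in the summed FPKM of the listed genes for its enzyme (percent, per library) against hours after cutting. CCoAOMT1 to 3 are on the left, CAD1 and CAD2 on the right, with WT filled and OE open. The CCoAOMT2 share runs from 81.8% down to 49.8% and the CCoAOMT3 share from 3.44% up to 24.6%, while the CAD2 share is highest at 24 h and lowest at 96 h.

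*AldOMT2* was highest at a middle time and lowest at 96 h. In WT its libraries held 359.7 and 329 CPM (6 h), 404 and 355 (12 h), 496 and 464 (24 h), 441 and 382 (48 h), and 249 and 224 (96 h). OE libraries held 296 and 309.6 CPM (6 h), 372 and 314 (12 h), 417 and 329 (24 h), 415 and 343 (48 h), and 299 and 253 (96 h). The WT maximum at 24 h lay above every other WT time without overlap, whereas the OE libraries at 12, 24 and 48 h overlapped, as did those at 6 and 96 h. In WT *AldOMT2* fell 2.03-fold from 24 to 96 h (log2 fold change -1.02, SE 0.141, adjusted p = 0.000109), and most of that fall came after 48 h (log2 fold change -0.80, SE 0.141, adjusted p = 0.00136). It was 1.46-fold lower at 96 h than at 6 h in WT (adjusted p = 0.00331). In OE the fall from 24 to 96 h was 1.35-fold (log2 fold change -0.43, SE 0.140, adjusted p = 0.0314) and was not called without OE 24 h replicate 1 or OE 96 h replicate 2 (adjusted p 0.164 to 0.336).

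*CCR2*, the reductase at the entry to the monolignol branch, had the smallest ratio of highest to lowest group mean within a genotype (1.34 in WT and 1.21 in OE). The WT libraries held 246 and 273 CPM (6 h), 293 and 274 (12 h), 261 and 235 (24 h), 216 and 208 (48 h), and 233 and 212 (96 h). In OE they held 263 and 178 CPM (6 h), 239.6 and 213 (12 h), 198 and 177 (24 h), 215 and 221 (48 h), and 224 and 208 (96 h). The 6 h libraries of OE spanned nearly the whole range of that genotype and overlapped those of every other time. *CCR2* was called in none of the comparisons between times. Its change from 6 to 96 h was -0.22 on the log2 scale in WT (95% interval -0.52 to 0.08, adjusted p = 0.187) and -0.03 in OE (-0.33 to 0.27, adjusted p = 0.874). The OE value rested on the 6 h libraries, since without OE 6 h replicate 1 it was 0.26 and without OE 6 h replicate 2 it was -0.30 with an adjusted p of 0.0414. From 24 to 96 h the change was -0.16 in WT (-0.45 to 0.14) and 0.21 in OE (-0.09 to 0.50).

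The 2 listed genes for cinnamyl alcohol dehydrogenase, the last enzyme before polymerisation, both rose from 6 to 12 h. They moved in opposite directions from 24 to 96 h. From 12 to 24 h the log2 fold changes of *CAD1* and *CAD2* were -0.10 and 0.31 in WT. In OE they were -0.16 and 0.29, and none of these was called. *CAD1* held 284 and 278 CPM (6 h), 431 and 407 (12 h), 355 and 424 (24 h), 392 and 366 (48 h), and 556 and 516 (96 h) in WT. In OE it held 262 and 274 CPM (6 h), 397 and 351 (12 h), 347 and 324 (24 h), 350.4 and 411 (48 h), and 564 and 447 (96 h). In both genotypes the 6 h libraries were the lowest and the 96 h libraries the highest, without overlap with any other time. *CAD1* rose 1.49-fold from 6 to 12 h in WT (log2 fold change 0.58, SE 0.125, adjusted p = 0.00208) and 1.40-fold in OE (log2 fold change 0.48, SE 0.125, adjusted p = 0.00683). From 6 to 96 h the rise was 1.91-fold in WT (adjusted p = 9.03e-06) and 1.88-fold in OE (adjusted p = 1.18e-05). From 24 to 96 h it rose 1.37-fold in WT (log2 fold change 0.46, SE 0.124, adjusted p = 0.0112) and 1.51-fold in OE (log2 fold change 0.59, SE 0.124, adjusted p = 0.0031). The WT call needed replicate 1 of both 24 and 96 h and the OE call OE 96 h replicate 1, without which adjusted p was 0.0809 to 0.143 and 0.0728.

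*CAD2* had its highest mean at 24 h in both genotypes. In WT its libraries held 85.9 and 100.2 CPM (6 h), 134 and 162 (12 h), 176 and 190.3 (24 h), 136 and 155 (48 h), and 75.6 and 57.7 (96 h). The OE libraries held 52.7 and 55.0 CPM (6 h), 134 and 131 (12 h), 183 and 142 (24 h), 143 and 114 (48 h), and 81.1 and 76.7 (96 h). The lowest libraries were those at 96 h in WT and at 6 h in OE, in each case without overlap with another time of that genotype, and in OE the libraries at 24 and 48 h overlapped. From 6 to 12 h *CAD2* rose 1.59-fold in WT (log2 fold change 0.67, SE 0.153, adjusted p = 0.00307) and 2.47-fold in OE (log2 fold change 1.30, SE 0.155, adjusted p = 1.87e-05). From 24 to 96 h it fell 2.75-fold in WT (log2 fold change -1.46, SE 0.155, adjusted p = 1.53e-05) and 2.06-fold in OE (log2 fold change -1.04, SE 0.153, adjusted p = 0.000292). From 6 to 96 h the transcript fell in WT (log2 fold change -0.48, SE 0.155, adjusted p = 0.0133) and rose in OE (log2 fold change 0.55, SE 0.155, adjusted p = 0.0059). The WT call was lost without WT 6 h or WT 96 h replicate 2 (adjusted p 0.113 to 0.174) and the OE call without OE 6 h replicate 1 (adjusted p = 0.0505). Of the summed FPKM of *CAD1* and *CAD2*, *CAD2* made up 31.7 ± 2.11% in WT at 24 h and 11.03 ± 1.69% at 96 h (SD, n = 2). In OE it made up 32.1 ± 3.51% and 13.6 ± 1.34%.

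**Figure D3:**
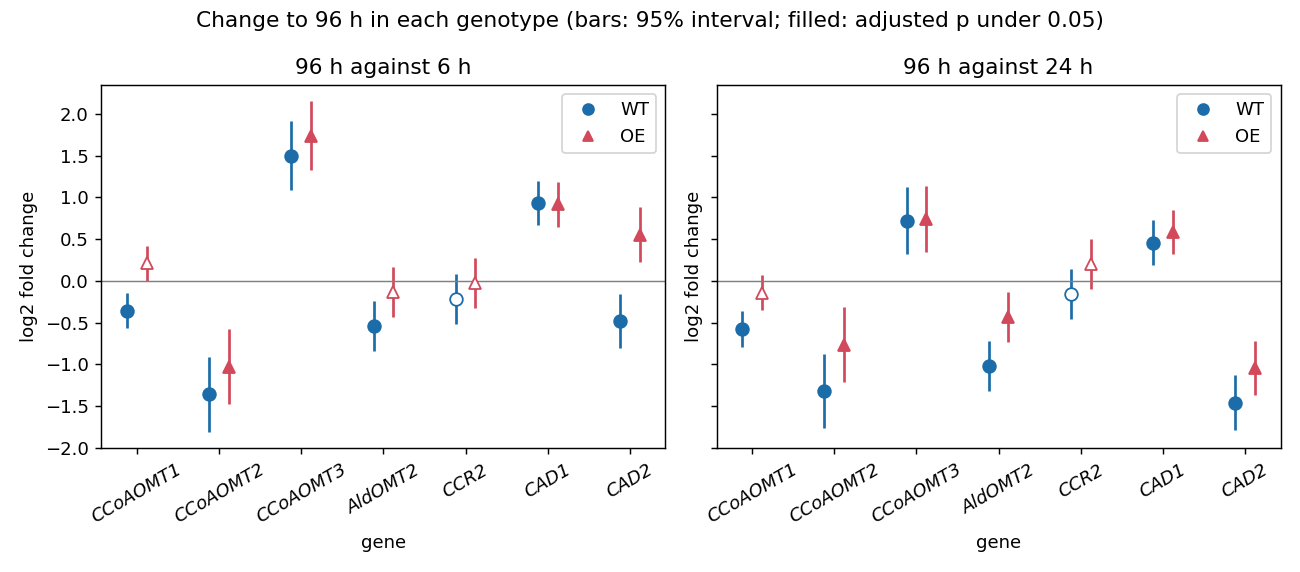
Log2 fold change from 6 to 96 h (left) and from 24 to 96 h (right) for each gene, with WT as circles, OE as triangles, bars for 95% intervals and filled marks for adjusted p under 0.05. CCoAOMT2 is below 0 and CCoAOMT3 and CAD1 above 0 in all 4 comparisons. From 6 to 96 h CAD2 and CCoAOMT1 differ in sign between WT and OE, and the OE change of CCoAOMT1 is not called. From 24 to 96 h CCR2 differs in sign, and neither of its changes is called.

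Many genes changed with time, so the counts of the 7 genes are set beside those of all genes tested. Between 6 and 96 h, 6 of the 7 genes were called in WT (2 higher and 4 lower) against 60.4% of all genes (30.2% higher and 30.2% lower). In OE it was 4 of 7 (3 higher and 1 lower) against 60.0% (31.1% higher and 28.9% lower). Between 24 and 96 h it was 6 of 7 in WT (2 higher, 4 lower) against 30.3% (14.8% higher, 15.5% lower). In OE 5 of 7 were called (2 higher, 3 lower) against 26.5% (12.7% higher, 13.8% lower). The OE count was 2 without OE 24 h replicate 1 and 3 without either OE 96 h library. From 6 to 12 h, 2 of 7 were called in WT against 36.0% of genes and 4 of 7 in OE against 36.8%, all of them higher, as were 17.6% and 17.8% of genes, and the OE count was 2 without OE 12 h replicate 1, where *CAD1* and *CCoAOMT1* were no longer called.

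The middle steps held few calls. From 12 to 24 h *CCoAOMT3* was called higher in WT, where 13.9% of genes were called (6.52% higher), and no gene of the 7 in OE, where 2.58% were and DESeq2 and an unadjusted p under 0.05 also gave 0 of 7. From 24 to 48 h none of the 7 was called in either genotype, against 5.58% of genes in WT and 6.61% in OE (2 and 1 of the 7 had an unadjusted p under 0.05, and DESeq2 called 1 and 0). The WT change of *CCoAOMT2* in that step was -0.71 on the log2 scale (adjusted p = 0.0563), and it was called by DESeq2, with median-of-ratios scaling and without the filter on low counts. From 48 to 96 h 4 of 7 were called in WT, against 16.0% of genes (6.92% higher, 9.04% lower), with 6 of 7 at an unadjusted p under 0.05 and 5 called by DESeq2. *CAD1* rose (log2 fold change 0.50), and *CCoAOMT1* (-0.47), *AldOMT2* (-0.80) and *CAD2* (-1.13) fell. The calls of *CCoAOMT1* and *CAD1* did not hold without WT 96 h replicate 2 for the first, and without WT 48 h replicate 2 or WT 96 h replicate 1 for the second. In OE *CAD2* alone passed in that step by edgeR (log2 fold change -0.71, SE 0.152, adjusted p = 0.0108), against 7.18% of genes (3.54% lower). It was not called without OE 48 h replicate 1 or either OE 96 h library. In OE 5 of 7 had an unadjusted p under 0.05 and DESeq2 called 3. Besides *CAD2* these were *CAD1* (log2 fold change 0.41, adjusted p = 0.0578 by edgeR) and *AldOMT2* (-0.46, adjusted p = 0.0597 by edgeR).

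The other enzymes of the pathway were followed as 15 gene models, 4 for phenylalanine ammonia-lyase (PAL), 5 for P450 hydroxylases and 6 for 4CL, HCT and CSE, which activate the acids and form and cleave their shikimate esters. In WT 13 of the 15 were called lower at 96 h than at 24 h and none higher, against 15.5% and 14.8% of all genes. The median log2 fold change was -0.73, beside 0.02 for all genes tested and -0.58 for the 7 genes. In OE 1 was called higher and 5 lower, against 12.7% and 13.8% of all genes, with medians of -0.22, 0.02 and -0.14. The OE count of 6 dropped to 1 when OE 24 h replicate 1 was left out, to 2 when OE 96 h replicate 2 was, and to 3 when WT 24 h replicate 1 was. Between 6 and 96 h, 1 of the 15 was higher and 7 lower in WT, and 5 were higher and 5 lower in OE, a count of 10 that was 6 without OE 96 h replicate 2. For the 26391 genes tested, the share called between 6 and 96 h was 60.4% in WT (30.2% higher, 30.2% lower). The OE share was 60.0% (31.1% higher, 28.9% lower). Of the 4 PAL genes, 3 fell and none rose from 24 to 96 h in WT, and 1 rose and none fell in OE. The 5 secondary wall cellulose synthases were all lower at 96 h than at 6 h in WT (median log2 fold change -2.03), none was called in OE (median -0.15, with 1 at an unadjusted p under 0.05 and 1 by DESeq2), and none was called by edgeR or DESeq2 between 24 and 96 h in either genotype (2 in WT and 0 in OE at an unadjusted p under 0.05). Their summed level was 124 to 145 FPKM in WT at 6 h, 33.1 to 35.9 FPKM in WT at 96 h, and 51.1 to 81.9 and 54.0 to 59.1 FPKM in OE at those times. The part of these xylem markers in the changes of the 7 genes since 6 h was not tested.

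The design sets OE beside WT at each of the 5 times. Averaged over the 5 times, none of the 7 genes differed between OE and WT by an adjusted p under 0.05, where 1.16% of all genes tested did. Estimates for 6 genes were below 0, as were 12089 of all 26391 genes tested, and *CCoAOMT3* was at 0.01. The largest were *CAD2* at -0.21 (-0.36 to -0.07, 95% interval, adjusted p = 0.175) and *CCR2* at -0.19 (-0.33 to -0.06, adjusted p = 0.185). These 2 of the 7 genes had an unadjusted p under 0.05, against 3100 of 26391 in all, and DESeq2 also called none. *CCR2* was called without OE 6 h replicate 1 (adjusted p = 0.0121). For the others the averaged difference was -0.03 for *CCoAOMT1* (-0.13 to 0.06), -0.15 for *CCoAOMT2* (-0.35 to 0.04), -0.12 for *AldOMT2* (-0.25 to 0.01) and -0.11 for *CAD1* (-0.22 to 0.01), and the interval of *CCoAOMT3* was -0.17 to 0.19.

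*CAD2* at 6 h was the one gene and time at which the genotypes differed by the test. Its WT libraries held 85.9 and 100.2 CPM and its OE libraries 52.7 and 55.0 CPM, so that both OE values lay below both WT values. The level was 1.73-fold lower in OE than in WT (log2 fold change -0.79, SE 0.156, adjusted p = 0.0238), and 1 of 7 genes was thus called where 1.09% of all genes tested were (0.678% lower). Leaving out any 1 of the 4 libraries at 6 h ended the call (adjusted p 0.063 to 0.17), as did fitting those 4 libraries alone (log2 fold change -0.80, adjusted p = 0.0637). None of the 15 other monolignol genes was called by edgeR at 6 h (5 at an unadjusted p under 0.05 and 3 by DESeq2), and 14 of the 15 estimates were below 0 (median -0.18, beside 0.01 for all genes tested and -0.23 for the 7 genes). All 5 secondary wall cellulose synthases were lower in OE at 6 h, with log2 fold changes from -1.18 to -0.91 and adjusted p from 0.0256 to 0.0479. Leaving out any of 14 libraries lowered that count to 3 or fewer. It was 0 without WT 6 h replicate 1, WT 6 h replicate 2 or OE 6 h replicate 1, and 1 without either library of WT 48 h, WT 96 h or OE 96 h. It was 2 without either OE 24 h library, and 3 without either WT 12 h library or WT 24 h replicate 1. With the 4 libraries at 6 h alone it was 0. Their summed level was 124 to 145 FPKM in WT and 51.1 to 81.9 FPKM in OE, and their part in the *CAD2* difference was not tested.

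At the other times none of the 7 genes was called between the genotypes by edgeR or DESeq2, and 3, 2, 0 and 1 of them had an unadjusted p under 0.05 at 12, 24, 48 and 96 h. At 12 h, where 0.398% of all genes were called, *CCoAOMT3* was 1.52-fold higher in OE without overlap of libraries and did not pass (log2 fold change 0.60, SE 0.187, adjusted p = 0.175). *CCoAOMT2* at that time stood at 857 and 702 CPM in WT and 675 and 433 CPM in OE (log2 fold change -0.49, adjusted p = 0.352). At 24 h, where 0.739% of all genes were called, all 7 estimates were below 0, as they were at 6 h, at both times also with median-of-ratios scaling and DESeq2. At each of these times 14 of the 15 other monolignol genes were below 0 too. Of all 26391 genes tested, 12536 were below 0 at 6 h and 12399 at 24 h. The signs are not independent of each other, since the genes share the same libraries and scaling factors. At 24 h *CCoAOMT3* (-0.07) was at 0.05 without WT 24 h replicate 2, and at 6 h *CCoAOMT3* was above 0 once WT 6 h replicate 1 was left out, as was *CCR2* once OE 6 h replicate 2 was. The largest differences at 24 h were *CCR2* at -0.40 (-0.70 to -0.10, adjusted p = 0.265) and *AldOMT2* at -0.36 (-0.66 to -0.07, adjusted p = 0.321). At 48 h, where 0.0455% of genes were called, the 7 estimates lay between -0.18 and 0.06. At 96 h, with 1.53% called, *CCoAOMT1* was highest relative to WT (log2 fold change 0.28, SE 0.0994, adjusted p = 0.18), with 161 and 140.3 CPM in OE above 133 and 115 CPM in WT. Of the other pathway genes 1 was called at 24 h, lower in OE, and 1 PAL gene at 96 h, higher in OE.

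**Figure D4:**
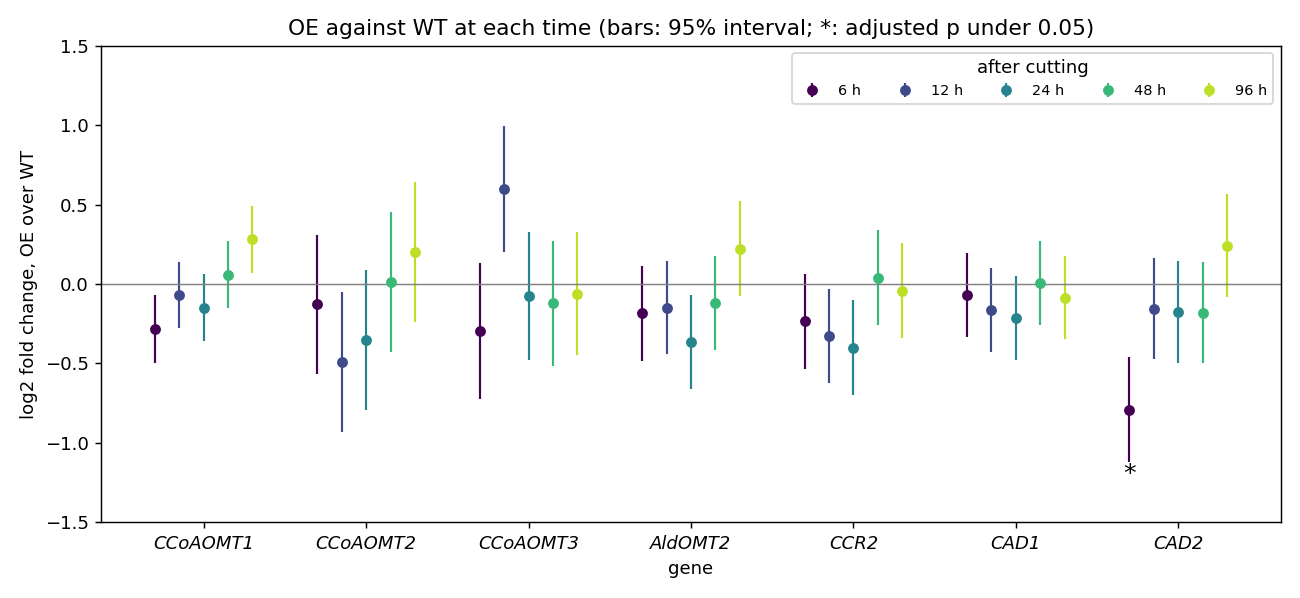
Log2 fold change of OE over WT for each gene at 6, 12, 24, 48 and 96 h after cutting, with bars for 95% intervals and a star for adjusted p under 0.05. The star marks CAD2 at 6 h (-0.79). All 7 points lie below 0 at 6 h and at 24 h, as do 12536 and 12399 of all 26391 genes tested.

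Whether the genotype difference changed over the 5 times was tested with 4 contrasts together. None of the 7 genes passed, where 1.65% of all genes did (3 of the 7 had an unadjusted p under 0.05), and the smallest adjusted p were 0.113 for *CAD2* and 0.166 for *CCoAOMT1*. With DESeq2 both were called (adjusted p = 0.0161 and 0.0404), and *CAD2* also without the filter on low counts (0.0463). All 5 secondary wall cellulose synthases were called in this test. The change from 6 to 96 h was then compared between the genotypes in a contrast chosen after the data were seen. For *CAD2* it was higher in OE than in WT by 1.03 on the log2 scale (SE 0.219, adjusted p = 0.0222), and for *CCoAOMT1* by 0.57 (SE 0.141, adjusted p = 0.0454). The other 5 genes were not called, and 2.36% of all genes were (1.63% higher in OE). In the same contrast all 5 secondary wall cellulose synthases and 5 of the 15 other monolignol genes, 2 of them PAL genes, were called higher in OE, and the part of these xylem markers in the 2 differences was not tested. The *CAD2* call was lost without WT 6 h replicate 2, OE 6 h replicate 1, WT 96 h replicate 2 or either OE 96 h library (adjusted p 0.0702 to 0.117), and that of *CCoAOMT1* without any of 17 libraries, which are all but both OE 24 h libraries and WT 96 h replicate 1 (adjusted p 0.0546 to 0.232). For the change from 24 to 96 h none of the 7 differed between the genotypes by edgeR or DESeq2, where 0.140% of genes did in edgeR (2 of 7 at an unadjusted p under 0.05). The fall of *AldOMT2* and *CCoAOMT1* in WT over that interval, and its smaller or uncalled size in OE, is therefore not shown to differ.

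Over the 10 group means of log2 CPM, 3 of the genes had similar profiles. Pearson's r was 0.90 between *CCoAOMT1* and *AldOMT2*, 0.90 between *CCoAOMT1* and *CAD2*, and 0.85 between *AldOMT2* and *CAD2*. A second similar pair was *CCoAOMT3* and *CAD1*, with r of 0.81. *CCoAOMT2* ran against that pair, with r of -0.87 to *CCoAOMT3* and -0.66 to *CAD1*, and the 2 genes *CAD1* and *CAD2* stood at 0.03. The profiles come from the same libraries and scaling factors and share the time course, so these 21 pairs are a description. The median r of a gene with the other 6 ran from -0.12 for *CCoAOMT3* to 0.41 for *AldOMT2*.

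**Figure D5:**
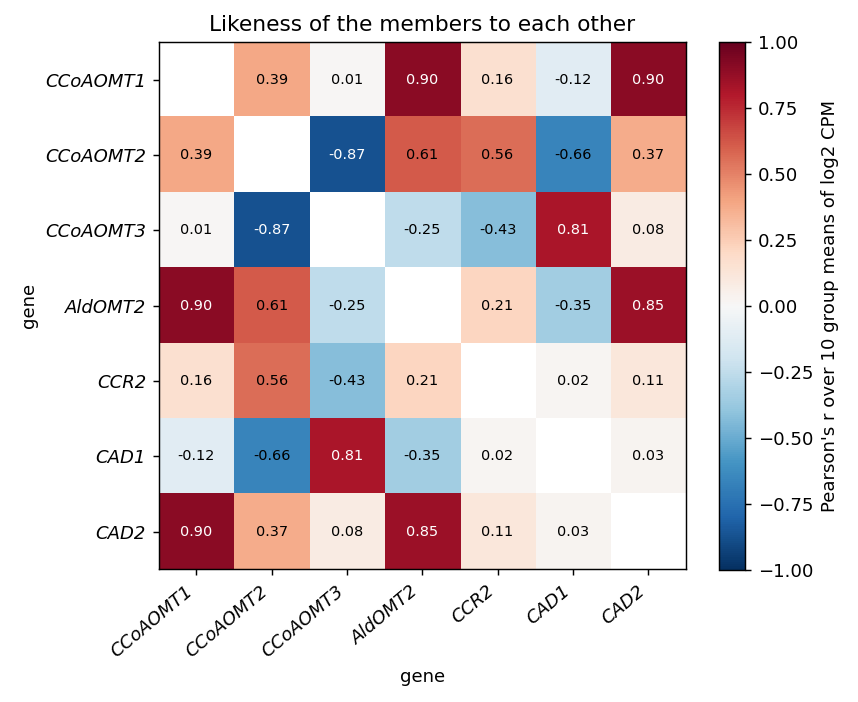
Pearson's r between each pair of the 7 genes over 10 group means of log2 CPM (colour scale from -1 to 1). CCoAOMT1, AldOMT2 and CAD2 form a block at 0.85 to 0.90, CCoAOMT3 and CAD1 stand at 0.81, and CCoAOMT2 and CCoAOMT3 at -0.87.

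Among the 21449 other tested genes whose log2 CPM averaged 1 or more, the profile most like that of *CCoAOMT2* belonged to Potri.003G187000.v3.0 (r = 0.99 over the 10 group means). The closest to *CCoAOMT3* was Potri.001G092600.v3.0 (0.99) and to *CCoAOMT1* Potri.014G171300.v3.0 (0.96). For *AldOMT2* it was Potri.005G082800.v3.0 (0.98), for *CAD1* Potri.006G075500.v3.0 (0.98) and for *CAD2* Potri.013G154400.v3.0 (0.99). *CCR2* had the lowest best match of the 7, Potri.007G035500.v3.0 at 0.90. Each match is the highest of 21449 values of r over 10 points, so its height follows in part from the search. The median r of a gene with all of these ran from -0.03 for *CAD2* to 0.02 for *CCoAOMT3*. The deposited tables give no names for these IDs.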

How the data were processed

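The deposited tables hold, per the file headers, a count, an FPKM value and a further normalized value (not used) for each of 39538 gene models in each of 20 libraries. The submitters' processing notes name TopHat2 2.1.1 and HTSeq 0.6.0 without role or order. No genome build, annotation release or strand setting is given in the sources used here. The authors' count columns were tested as deposited. The authors' FPKM values, which are scaled by length and library, were used for levels compared between genes and were not tested.

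Counts were analysed in R 4.3.3 with edgeR 4.0.16: filterByExpr, TMM scaling, 1 group-means model over all 20 libraries (10 residual degrees of freedom), the two-sided quasi-likelihood test, and Benjamini-Hochberg adjustment over 26391 genes. A gene was called at an adjusted p under 0.05. CPM are TMM-scaled counts at equal library size, and groups are given per library or as mean ± SD. The 2 libraries of a group differed by more than counting noise throughout (chi-square over its degrees of freedom, 4.48 to 16.2). Replicate numbers only name libraries, in accession order, and were not used to pair them.

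Alternatives were median-of-ratios scaling, DESeq2 1.42.0, no filter on low counts, an additive model, the 4 libraries of a time alone, and leaving out each library. The members and lists were chosen with earlier results of these data known. List membership follows published poplar gene families, not the files, and 20 of 21 listed IDs were analysed. All 7 genes are named, and for each the 1 other gene with the most similar profile. The 2 contrasts of the change to 96 h between genotypes were added after the data were seen. The level of *PuHox52* itself was not used to check the labels, because no ID could be tied to it, and no promoter or protein sequences are shown because none were at hand.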

Additional observations from a re-analysis of the deposited data

Results flagged for a closer look

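The change of *CAD2* from 6 to 96 h differed between the genotypes in a test of the difference itself, with a fall in WT (log2 fold change -0.48), a rise in OE (0.55) and a difference of 1.03 (adjusted p = 0.0222 by edgeR). The same contrast for *CCoAOMT1* gave a difference of 0.57 (adjusted p = 0.0454), with -0.36 in WT and 0.21 in OE, where the OE change did not pass. Both contrasts were chosen after the data were seen, and both calls could be lost by leaving out 1 library. The planned test of whether the genotype difference changed over the times called neither gene by edgeR. Its adjusted p was 0.113 for *CAD2* and 0.166 for *CCoAOMT1*, while DESeq2 called both. In the same contrast 5 of 5 secondary wall cellulose synthases and 5 of 15 other monolignol genes were also called higher in OE. The difference between the genotypes at 6 h itself was -0.79 for *CAD2* and -0.28 for *CCoAOMT1*, and at 96 h it was 0.24 and 0.28. The same comparison from 24 to 96 h gave 0.42 for *CAD2* (adjusted p = 0.658) and 0.43 for *CCoAOMT1* (adjusted p = 0.331).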

How the results depend on the processing

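The 34 called values of the 7 genes in the planned comparisons were recomputed under 783 alternatives. The call and direction held in 750, the call was lost in 33 and no direction reversed. All 34 were called with DESeq2, with median-of-ratios scaling and without the filter on low counts, and 18 were called in every alternative run. Most of the 783 alternatives left out a library from outside the groups compared, which bears less on the result. Every lost call came from leaving out a library of the compared groups or from fitting the 4 libraries of 6 h alone. The 750 therefore overstate how far the calls held. Each group has 2 libraries, so leaving 1 out assumes that the other varies like the remaining groups.

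The number of the 7 genes called changed by more than 1.5 times in these cases. For OE against WT at 6 h it went from 1 to 0 with the 4 libraries alone, and leaving out 1 library gave 0 to 1, as it did for the average over times. For the change of the difference over times it went from 0 to 1 without the filter and to 2 with DESeq2. For WT 48 against 24 h it went from 0 to 1 with median-of-ratios scaling, no filter or DESeq2, and leaving out 1 library gave 0 to 1, as for WT 24 against 12 h. For OE 96 against 48 h it went from 1 to 2 without the filter, to 3 with DESeq2, and was 0 to 2 without 1 library. Leaving out 1 library gave 2 to 5 for OE 12 against 6 h and for OE 96 against 24 h, where the counts were 4 and 5. Of 104 uncalled values of the 7 genes with a direction, those of the added contrasts included, 29 reversed when 1 library was left out and 1 under another alternative. Those that the text or a figure uses had these ranges without 1 library. The averaged difference of *CCoAOMT3* ran from -0.054 to 0.077, its difference at 6 h from -0.594 to 0.0595, at 24 h from -0.198 to 0.054 and at 96 h from -0.260 to 0.0886. The difference of *CCR2* ran from -0.544 to 0.0172 at 6 h and from -0.108 to 0.0263 at 96 h, and its change from 6 to 96 h in OE from -0.30 to 0.26. At 48 h the difference ran from -0.1003 to 0.119 for *CCoAOMT2*, from -0.265 to 0.0216 for *AldOMT2* and from -0.104 to 0.111 for *CAD1*, and at 96 h from -0.0343 to 0.484 for *CCoAOMT2* and from -0.277 to 0.0581 for *CAD1*. The cause was not tested. The *CCoAOMT1* difference in the change from 6 to 96 h was also not called with median-of-ratios scaling (adjusted p = 0.0511) or without the filter (0.0588).

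Counts over all genes tested moved by more than 1.5 times in several comparisons of the genotypes. With DESeq2, 516 genes were called in the average against 307, 511 against 287 at 6 h, 389 against 105 at 12 h, 373 against 195 at 24 h, 40 against 12 at 48 h, 606 against 403 at 96 h and 1331 against 436 for the change over times. Without the filter the counts were 522, 427, 390, 377, 32, 658 and 1115 in that order. With the 4 libraries of a time alone 24 genes were called at 6 h, 1 at 12 h and 762 at 96 h, and the additive model called 122 in the average. No paired analysis was run, because the labels carry no replicate numbers and accession order may not pair the libraries. In most groups replicate 1 lay above replicate 2 for *CCoAOMT1*, *CCoAOMT2* and *AldOMT2*. Whether accession order marks a shared batch was not tested. With counts of at least 329 for every gene in every library, the 2 libraries per group limit the precision more than the depth does.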
